A study of Mus musculus with 11 samples.

Results

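Neurexins are adhesion proteins of the presynaptic membrane that bind partners across the synaptic cleft and help to set up release and reception of transmitter. Their relatives of the Caspr group, encoded by the Cntnap genes, are single-pass membrane proteins with a similar outer part. Scaffold proteins on either side of the cleft hold the release machinery and the receptors in place. In the suprachiasmatic nucleus (SCN), the hypothalamic pacemaker that keeps daily time, neurons couple to each other through such synapses. The 5 genes described below are long, spanning 635 to 2241 kb, and most of their length is intron.

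Described here are the windows that 4 deposited tables name after Nrxn3, a neurexin, Cntnap2 and Cntnap5a, 2 Caspr proteins, Dlg2, a postsynaptic scaffold also called PSD-93, and Rims1, a scaffold of the presynaptic active zone. The genes were chosen from results of these tables, so the values that put a window in a table are given as a description and without a test. They account for 7 of 1239 table entries, which are 6 of 1181 distinct windows, because the Rims1 window stands in 2 tables. Every window is 500 bp long, and positions are in the mouse build mm9.

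The tables hold MeDIP-seq values, from an antibody capture of methylated DNA followed by sequencing. The DNA came from the SCN of wild-type C57BL/6Cr1 mice, labelled as postnatal day 90, entered at an age of 6 weeks and kept for 6 more under days of 22, 24 or 26 h, followed by 3 days of constant darkness and collection at circadian time 4. From each brain a slice of about 250 µm through the middle of the SCN was parted into a ventral and a dorsal piece. The labels give 11 samples in 6 groups (each cycle length in the ventral and in the dorsal piece), 2 in each group but only 1 for dorsal 24 h, although the series text speaks of duplicates, and do not say whether samples pool mice. The files hold DNA signal only, so the labelled tissue could not be checked against expressed markers. Each table sets 24 h against 22 h or 26 h in 1 of the 2 pieces.

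Each cycle length appears in a table as a single column, so no difference below has a measure of the variation among mice beside it. The values are RPKM, that is reads per kb of window, scaled to the depth of the column. The columns held between about 4580000 reads (dorsal 24 h) and 9430000 reads (ventral 26 h), and the 24 h column was the shallowest in both pieces. Because all windows have 1 length, reads could be recovered from RPKM, and the 95% intervals given are exact ones for those reads. They cover counting error only. The signal is one of capture and was not checked against a direct measure of methylation. In pieces of whole tissue, a lower methylation level per cell and fewer cells with the methylated state cannot be told apart. With a single column per cycle length, neither can be told apart from a difference in capture between columns, which was not tested.

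The genes Nrxn3, Cntnap2, Cntnap5a and Dlg2 were listed in the ventral SCN, for 24 h against 22 h, with 5 windows. In all 5 the signal was lower at 24 h, by 3.40- to 8.75-fold, and all 5 lay in introns. In each of the 4 genes the window sat in repeated, CpG-rich DNA with an open reading frame that ran against the direction of the gene. How often frames in other genes do so was not computed. Rims1 was listed in the dorsal SCN instead, lower at 24 h than at 22 h and than at 26 h, and its intronic window was single-copy DNA with 1 CpG and no such frame nearby.

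The sequences show what kind of DNA was listed. CpG is the dinucleotide at which most mammalian DNA methylation is placed, and it stands in capitals. In the windows of Nrxn3, Cntnap2 and Dlg2 the sequence repeats itself in tandem, at a distance of 212, 214 and 206 bases. These stretches were chosen because they are 1 repeat unit each, cut so that Nrxn3 and Cntnap2 start at the same aligned base, and the second unit of Nrxn3 shows how closely the units of an array resemble each other.
Nrxn3, first unit (chr12:91320003-91320214, plus strand): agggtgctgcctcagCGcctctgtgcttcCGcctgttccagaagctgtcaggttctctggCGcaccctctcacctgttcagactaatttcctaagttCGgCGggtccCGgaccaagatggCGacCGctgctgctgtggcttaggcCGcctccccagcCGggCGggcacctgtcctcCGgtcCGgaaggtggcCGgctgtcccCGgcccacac
Nrxn3, second unit (chr12:91320215-91320426, plus strand): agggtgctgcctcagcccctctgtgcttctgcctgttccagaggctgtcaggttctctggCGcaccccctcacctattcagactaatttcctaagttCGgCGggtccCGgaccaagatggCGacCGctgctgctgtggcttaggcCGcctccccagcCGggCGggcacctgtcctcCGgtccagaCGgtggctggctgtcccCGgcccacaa
Cntnap2, first unit (chr6:45436007-45436220, plus strand): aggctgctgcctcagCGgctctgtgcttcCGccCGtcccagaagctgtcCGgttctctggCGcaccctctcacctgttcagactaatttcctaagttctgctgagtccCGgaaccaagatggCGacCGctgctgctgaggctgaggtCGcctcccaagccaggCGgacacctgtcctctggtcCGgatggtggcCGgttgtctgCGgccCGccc
Dlg2, first unit (chr7:98013001-98013206, plus strand): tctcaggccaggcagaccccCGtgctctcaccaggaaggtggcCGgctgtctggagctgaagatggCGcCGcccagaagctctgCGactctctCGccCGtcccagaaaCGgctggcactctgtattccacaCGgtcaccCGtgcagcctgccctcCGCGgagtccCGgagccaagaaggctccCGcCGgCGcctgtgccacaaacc
The 4 units held 15, 12, 14 and 16 CpGs in this order. Within their windows, a shift by the repeat distance matched 94.8% of bases in Nrxn3 and 99.3% in Dlg2. In Cntnap2 it matched 63.6%, because the array ends inside the window: its first 366 bases held all 24 CpGs and the remaining 134 held 0. The best match at any shift was 31.3% and 35.8% in the Cntnap5a windows and 34.0% in the Rims1 window.

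The Nrxn3 and Cntnap2 windows were related to each other, with 88.9% identity over 360 aligned bases in the same orientation. Dlg2 carried another kind of unit: its longest alignment to Cntnap2 was 55 bases at 80% identity, and that to Nrxn3 was 20 identical bases. Neither Cntnap5a window nor the Rims1 window aligned to any other of the 6. Common to the 3 tandem arrays was the word AAGATGGCG, which holds the core letters bound by the transcription factor YY1. Searched on both strands, it was found in the Nrxn3 window 2 times, in the Cntnap2 window 1 time and in the Dlg2 window 3 times, always on the plus strand, and in neither Cntnap5a nor Rims1. Of all 812 windows of the ventral 24 h against 22 h table, 136 (16.7%) held it, all of them among the 615 lower at 24 h (22.1% of these), against 0.473% of the 5116453 windows of this length in the genome. The word is part of the member units, and this table holds 92, 91 and 23 windows related in sequence to Nrxn3, Cntnap2 and Dlg2. Its count can therefore count copies of the same units again. The genome share was not matched for repeats or CpG, so no enrichment of the word is read from these shares. Such a match is a match of letters and does not show that a protein binds there.

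The Rims1 stretch is shown for contrast, with its single CpG in capitals.
Rims1, first 300 bases (chr1:22563001-22563300, plus strand): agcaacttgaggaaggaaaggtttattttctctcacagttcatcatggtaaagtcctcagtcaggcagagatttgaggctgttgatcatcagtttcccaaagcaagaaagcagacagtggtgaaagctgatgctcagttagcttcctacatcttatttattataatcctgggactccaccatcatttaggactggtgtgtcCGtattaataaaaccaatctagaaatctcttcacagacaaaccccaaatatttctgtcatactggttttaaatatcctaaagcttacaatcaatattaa
In this window 100% of the 31-base words occur once in the genome. Exact words do not reveal older, diverged copies, and no repeat annotation was used, so membership of an old repeat family was not tested.

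Nrxn3 encodes a neurexin, the presynaptic partner in many trans-synaptic pairs. Its window (chr12:91320001-91320500) had 1.15 RPKM in the ventral 24 h column, which is 3 reads, and 10.04 RPKM in the ventral 22 h column, which is 41 reads. The signal was 8.75-fold lower at 24 h (95% interval 2.79 to 44.2), the largest difference among the 4 ventral genes and the 94th of the 615 windows of this table that were lower at 24 h. With 3 reads in the denominator the interval is wide.

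Cntnap2 encodes Caspr2, which gathers potassium channels next to the nodes of myelinated axons and is also found at synapses. At chr6:45436001-45436500 the ventral 24 h column had 2.68 RPKM (7 reads) and the 22 h column 14.93 RPKM (61 reads). This was 5.58-fold lower at 24 h (2.55 to 14.5), near the median of 5.40-fold over the 615 lower windows.

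Cntnap5a encodes another Caspr protein. It had 2 windows that touch each other, so they are not independent. The first (chr1:117785501-117786000) had 3.82 RPKM (10 reads) in the 24 h column against 16.89 RPKM (69 reads) in the 22 h column, which is 4.42-fold lower (2.26 to 9.62). The second (chr1:117786001-117786500) had 4.21 RPKM (11 reads) against 18.36 RPKM (75 reads), which is 4.37-fold lower (2.31 to 9.12). The neighbours therefore gave nearly the same values in both columns, and their sum was 4.39-fold lower.

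Dlg2 encodes a scaffold that anchors glutamate receptors and potassium channels below the postsynaptic membrane. Its window (chr7:98013001-98013500) had the highest signal of the group in both columns, 6.12 RPKM at 24 h (16 reads) and 20.81 RPKM at 22 h (85 reads). The difference was the smallest of the group, 3.40-fold lower at 24 h (1.98 to 6.22), and ranked 559th among the 615.

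The 5 windows kept 1 order in the 2 columns: Nrxn3 was lowest, then Cntnap2, the first and the second Cntnap5a window, and Dlg2. Neighbours in this order had overlapping intervals. Nrxn3 and Dlg2, at the ends, did not: 0.24 to 3.35 against 3.50 to 9.93 RPKM at 24 h, and 7.20 to 13.6 against 16.6 to 25.7 RPKM at 22 h. The intervals of all 5 folds overlapped. That 5 of 5 windows were at least 2-fold lower stands beside a background of 75.0% of the whole table, and nothing follows from it, since the same contrast selected the windows. None of the 5 genes named a window in the ventral table of 24 h against 26 h (0 of 217 windows, with a background of 51.6% at least 2-fold lower), so their windows' values at ventral 26 h were not analysed here.

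**Figure D1:**
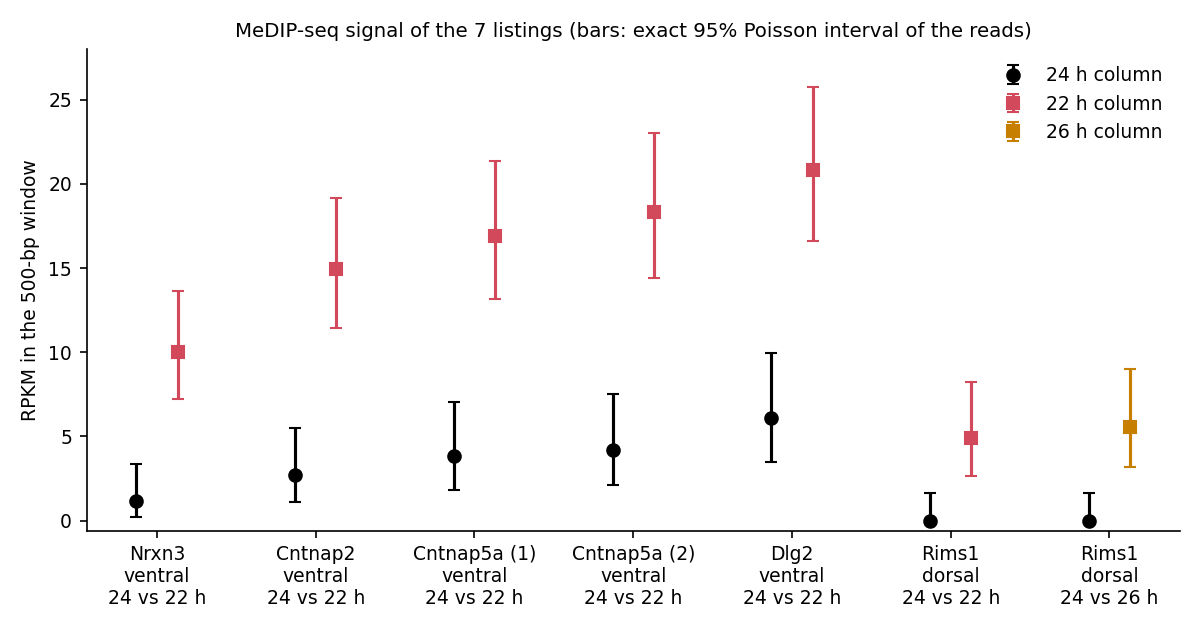
RPKM (vertical axis) of the 7 table entries in the 24 h column (black circles) and in the 22 h (red squares) or 26 h column (orange square); bars are exact 95% Poisson intervals of the reads. In every entry the 24 h value is lower and the 2 intervals do not overlap, from 1.15 against 10.04 RPKM at Nrxn3 to 0 against 5.55 RPKM at Rims1.

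In the authors' deposited table, whose test is edgeR, the log2 fold change of 24 h over 22 h ran from -2.90 at Nrxn3 (p = 6.27e-06) to -1.79 at Dlg2 (p = 2.47e-08). For Cntnap2 the authors' deposited table gave a value that stood at -2.47 (p = 4.17e-07) and the Cntnap5a windows at -2.02 (p = 1.21e-06) and -2.12 (p = 4.02e-08). These p-values are unadjusted and compare 2 columns, not groups of mice. Dlg2 had the smallest fold and the smallest p, in the window with the most reads.

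Rims1 encodes RIM1, which tethers vesicles and calcium channels at the presynaptic active zone. Its window (chr1:22563001-22563500) had 0 RPKM in the dorsal 24 h column, 4.89 RPKM (14 reads) in the dorsal 22 h column and 5.55 RPKM (16 reads) in the dorsal 26 h column. Against a floor of 3 reads in this column, which is 1.31 RPKM, the signal at 24 h was at least 3.74-fold lower than at 22 h and at least 4.24-fold lower than at 26 h. These bounds leave out the counting error of the 22 h and 26 h columns. The exact 95% interval of 0 reads reached 1.61 RPKM, and with counting error in both columns the lower limits of the ratio were smaller, 2.66 and 3.06.

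The 2 comparisons use the same 24 h column, which the labels trace to a single sample, so they are not independent. At 22 h and 26 h the values were close, with intervals of 2.67 to 8.21 and 3.17 to 9.01 RPKM. In the authors' deposited table the log2 fold changes were -6.93 (p = 6.14e-05) and -7.03 (p = 3.07e-05); against a column of 0 reads their size depends on how the zero is handled.

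Both dorsal tables listed 26 windows, and in 2 of these the 24 h column held 0 reads: the Rims1 window and a window nearest Cenpw, a centromere protein gene, with 6.29 RPKM at 22 h and 5.89 at 26 h. Over the whole tables, 29 of 131 windows (against 22 h) and 5 of 79 (against 26 h) were at 0 in that column. The Rims1 entries are 1 of 131 and 1 of 79 windows. They were at least 2-fold lower at 24 h, as were 84.7% and 68.4% of these tables, which again says nothing of Rims1 in particular. Its signal was low within them: at 26 h it was the lowest of the 62 windows lower at 24 h.

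**Figure D2:**
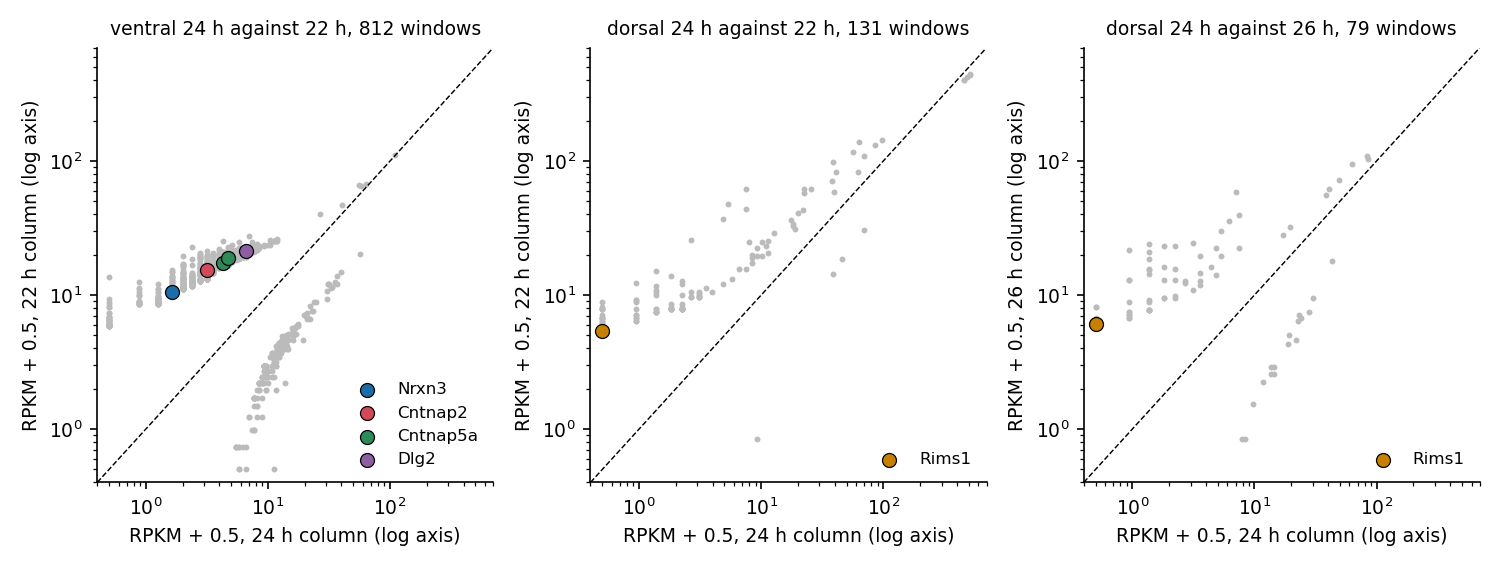
Each point is a listed window, with RPKM + 0.5 in the 24 h column (horizontal log axis) against the 22 h or 26 h column (vertical log axis), for the 3 tables that name the genes; the dashed line marks equal values. The ventral windows of Nrxn3, Cntnap2, Cntnap5a and Dlg2 lie along the band of 615 windows lower at 24 h, and Rims1 lies at 0 RPKM in the 24 h column.

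All 6 windows lay within the annotated gene they were named after (GENCODE M1), in introns, and overlapped no exon. No other listed window of any table lay in the 5 gene bodies. The Nrxn3 gene spans 1612 kb (chr12:89961320-91573375, plus strand), and its window lay 1358.9 kb from the 5′ end, in intron 15 of 20 of the longest transcript that spans it, 86.9 kb from the nearest exon. The distance of 269328 bp in the authors' deposited table refers to an inner start site from which shorter Nrxn3 transcripts begin.

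Cntnap2 spans 2241 kb (chr6:45010060-47251368, plus strand). Its window lay in the first intron, which is 593.6 kb long, 426.2 kb from the start site and 167.5 kb from the nearest exon. In Cntnap5a (chr1:117581333-118478603, plus strand), both windows lay in the first intron too, 204.0 and 204.5 kb from the start site and 11.5 and 11 kb from the nearest exon.

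Dlg2 spans 1945 kb (chr7:97650473-99595513, plus strand). The authors' deposited table gives a distance of -226045 bp, that is, upstream of a start site. In the annotation that start belongs to shorter transcripts, and the window lay in intron 4 of 25 of the longest one, 362.8 kb from the 5′ end of the gene. Of 15 annotated Dlg2 transcripts, 1 spans the window, whereas 8 of 14 Nrxn3 transcripts do.

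Rims1 (chr1:22276332-22911673, minus strand, 635 kb) held its window in intron 5 of 24, 348.4 kb from the 5′ end and 17.5 kb from the nearest exon. The distance in the authors' deposited table is 249312 bp, downstream of a start site. The nearest annotated start of a Rims1 transcript was 40.2 kb away. In absolute terms the 6 deposited distances ran from 204.0 to 426.2 kb, and so all exceeded 200 kb, against 27.7% of windows in the ventral table and 19.8% and 29.1% in the dorsal tables against 22 h and 26 h. The genes span 635 to 2241 kb, which leaves room for such distances. Gene length was not taken into account, so nothing is read from this contrast.

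**Figure D3:**
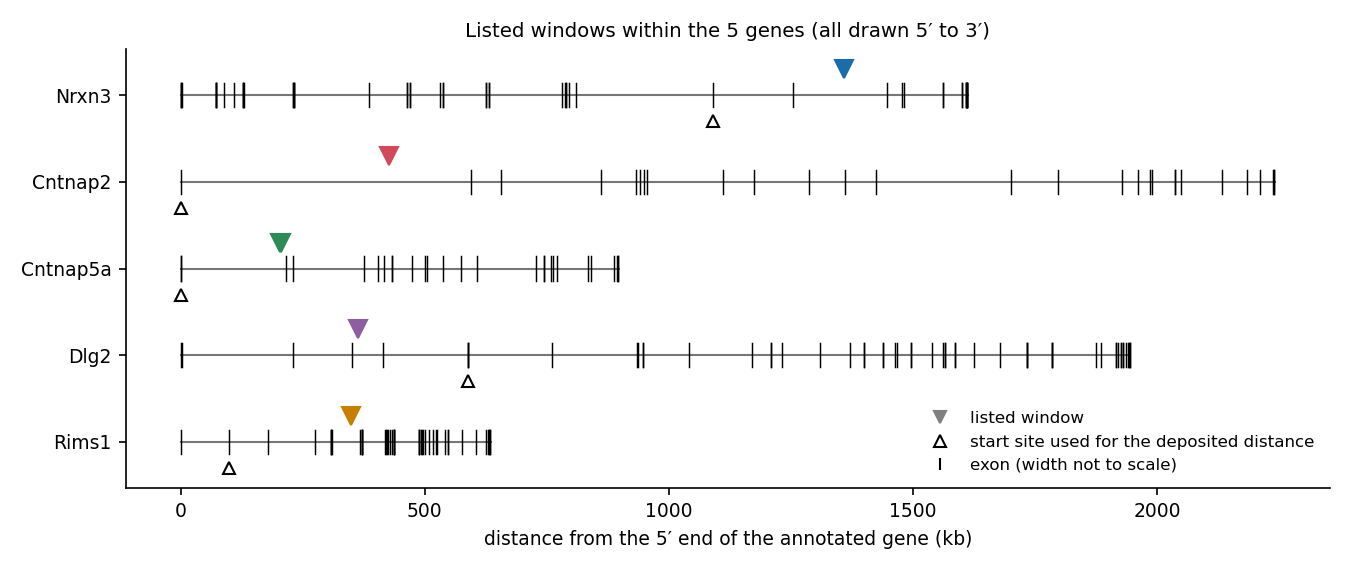
The 5 genes drawn to scale from their 5′ end (horizontal axis in kb), with exons as vertical ticks, listed windows as filled triangles and the start site behind the deposited distance as open triangles. Every window falls between exons, early in Cntnap2, Cntnap5a and Dlg2 and at 1358.9 of 1612 kb in Nrxn3; the 2 adjoining Cntnap5a windows share a triangle.

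CpG content set the ventral windows apart from the genes that hold them. The Dlg2 window held 37 CpGs, and no other of the 3891 windows of this length in the gene held as many. The Nrxn3 window held 29, and 0 of 3224 windows in Nrxn3 held more, although 1 other held as many. In Cntnap2, whose window held 24, 4 of 4482 held more. The first Cntnap5a window held 21, with 3 of 1795 above it, and the second held 12, with 9 above it. The median in each of these 4 genes was 2 CpGs, and it was 3 over the whole genome.

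Such density was usual for the table but rare in the genome, except at the second Cntnap5a window. Windows with 37 or more CpGs made up 0.301% of the genome, those with 29 or more 0.524% and those with 24 or more 0.769%. Those with 21 or more made up 0.998%, and those with 12 or more 4.21%. With 12 CpGs, the second Cntnap5a window lay below the median of 26 over the ventral table. Of the 812 windows of the ventral table, 521 (64.2%) held 20 CpGs or more. The median was 28 in the 615 windows lower at 24 h and 5 in the 197 higher at 24 h. The order of the windows by CpG (Dlg2, Nrxn3, Cntnap2, Cntnap5a) was not their order by RPKM, since Nrxn3 came last in signal.

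The Rims1 window held 1 CpG, while 91.8% of windows in the genome held 1 or more, and with 250 bp added on each side the count was still 1. Whether its 0, 14 and 16 reads at dorsal 24, 22 and 26 h reflect captured methylated DNA was not tested. In Rims1 893 of 1168 windows held more. Windows with 0 or 1 CpG made up 26.7% (against 22 h) and 36.7% (against 26 h) of the dorsal tables, 15.7% of the ventral table against 26 h and 4.56% of the ventral table against 22 h.

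**Figure D4:**
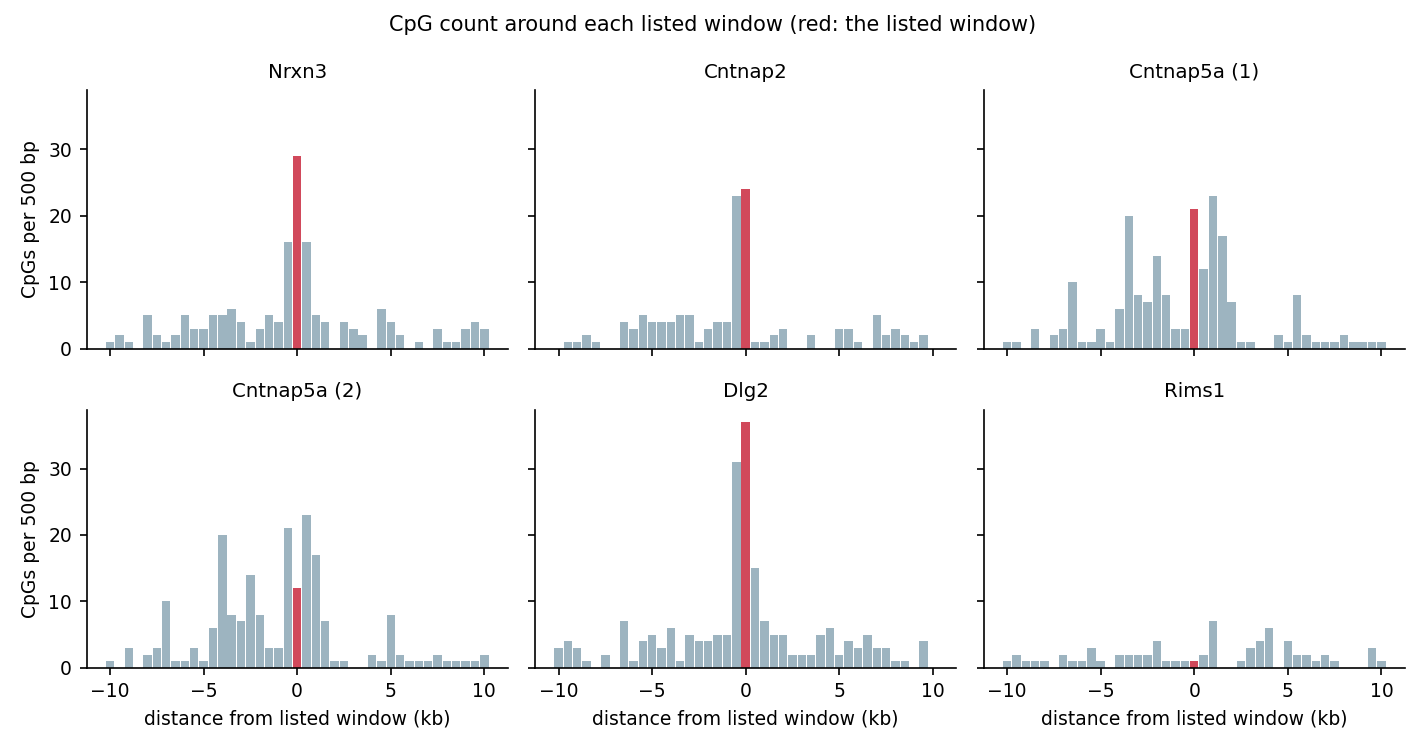
CpGs per 500 bp (vertical axis) by distance from each listed window (horizontal axis, 10 kb to each side), with the listed window in red. Narrow peaks of 29, 24 and 37 CpGs stand at Nrxn3, Cntnap2 and Dlg2, the Cntnap5a windows with 21 and 12 belong to a wider CpG-rich stretch, and the Rims1 window holds 1.

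By short amino acid motifs, the open reading frames near the windows were sorted into 2 kinds of repeated element. LINE-1 elements are retrotransposons without long terminal repeats that carry, in mice, tandem promoter units ahead of their genes. A frame with the reverse transcriptase motif of LINE-1 began 1512 bp from the Nrxn3 window (1300 codons), 1737 bp from the Cntnap2 window (973 codons) and 1838 bp from the Dlg2 window (1300 codons). A shorter frame of 384, 384 and 407 codons lay between, at 374, 599 and 631 bp. The window lay upstream of each of these frames.

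Both Cntnap5a windows lay inside a single frame of 1091 codons that holds the reverse transcriptase motif of retrotransposons with long terminal repeats. Frames were counted from stop to stop from 300 codons up. The motifs were short strings of amino acid letters, FADD for LINE-1 and YxDD, with x any letter, for elements with long terminal repeats. Such a string can also occur by chance in a long frame. The kinds were not checked against a repeat annotation or known proteins. All these frames ran on the minus strand, and all 4 genes lie on the plus strand. The orientation of frames near other listed windows or in other genes was not computed, so nothing is read from this count. No frame of this length was found within 8000 bp of the Rims1 window.

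The ventral windows were made of DNA that occurs at many places, and how reads that match several places were assigned is not given in the sources used here. The share of 31-base words that occur once in the genome was 4.9% at Nrxn3, 28.3% at Cntnap2 and 0.0% at Dlg2 and in both Cntnap5a windows. The median word occurred 2240 times at Nrxn3, 517 at Cntnap2, 809 at Dlg2, and 282.5 and 211 in the Cntnap5a windows. None of the 5 was mostly unique by the 50% limit, and among the 615 lower windows 19 were (3.09%).

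Copies of at least 400 bp and 90% identity were counted as separate places. The Nrxn3 window had 1669 of them, including itself, the Dlg2 window 399, and the Cntnap5a windows 1403 and 88. Of these places, 37 (2.22%), 22 (5.51%), 59 (4.21%) and 3 (3.41%) overlapped a listed window of any table. At 98% identity the counts fell to 262, 173, 13 and 30. The Cntnap2 and Rims1 windows had no other copy of that length. For Cntnap2 this says nothing about repetition. Its array fills only the first 366 bases of the window, so copies of the array alone fall below the limit of 400 bp. Its median word occurred 517 times in the genome. In none of the 5 genes did another such copy lie within the gene.

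Within the ventral table against 22 h, the listed windows that resembled the ventral members, with at least 200 aligned bases at 80% identity or more, were all lower at 24 h. There were 92 such windows for Nrxn3, 91 for Cntnap2 (90 of them shared with Nrxn3), 23 for Dlg2, and 47 and 8 for the Cntnap5a windows. Without the members themselves they made up 169 windows, between 2.83- and 28.2-fold lower with a median of 5.98. For a 24 h value of 0, 3 reads were put in. Of all 812 windows, 615 were lower. Of the 302 windows that repeat in tandem at a distance near that of Nrxn3 and Dlg2, 300 were lower and 2 higher. How many of these are relatives was not counted. Of the 130 mostly unique windows, 19 were lower and 111 higher. The direction was therefore shared by nearly all such tandem windows, and the whole table is a mixed background. The 169 related windows come from the same 2 columns and share sequence, so they are not replicates of the members.

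The medians of related windows differed from the values of the members to a varying degree. Around Nrxn3 the median was 1.53 RPKM at 24 h and 12.1 at 22 h, a 6.67-fold difference, with quartiles of 5.44 and 9.40. Around Cntnap2 the median was 6.72-fold, with 1.53 RPKM at 24 h where the member had 2.68. Around Dlg2 it was 4.35-fold (4.21 against 16.7 RPKM, where the member had 6.12 against 20.81), and around the Cntnap5a windows 5.55-fold and 4.85-fold. Dlg2, with 3.40-fold, lay below the lower quartile of its relatives, which was 3.85.

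**Figure D5:**
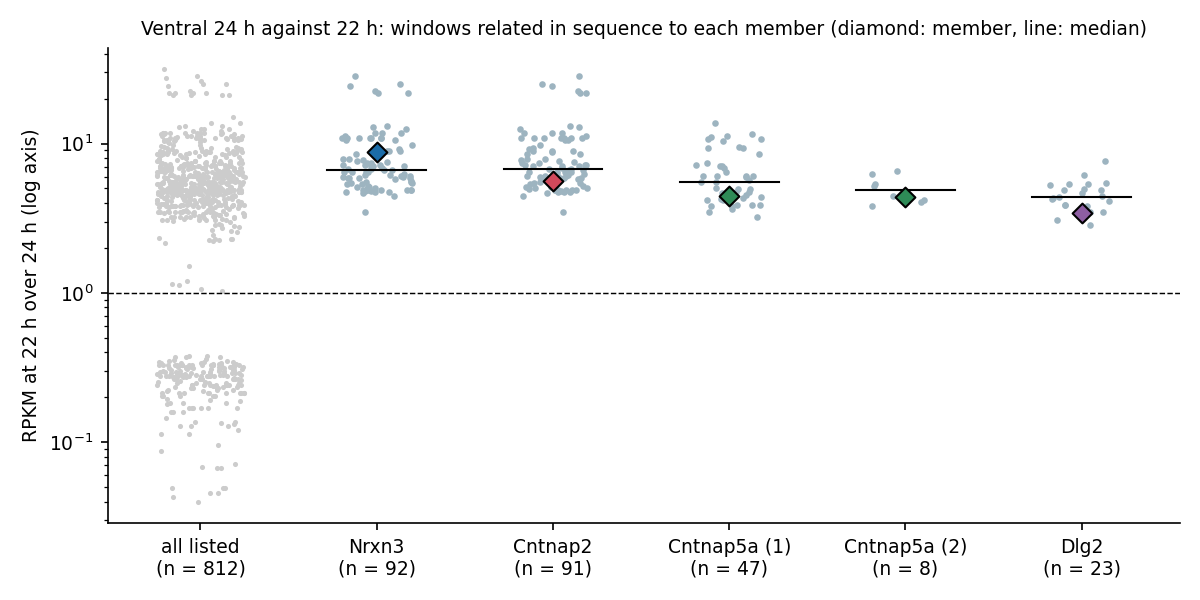
RPKM at 22 h over 24 h (vertical log axis) in the ventral table for all 812 windows (grey), for the windows related in sequence to each member (blue points, black line at their median) and for the member (diamond); where a column is at 0 the point is a bound against 3 reads. The related windows lie above the dashed line of equal signal, with medians between 4.35 and 6.72, while the whole table falls on both sides. Of the 302 tandem windows in this table, which are not marked apart, 300 were lower at 24 h too.

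The Cntnap5a sequence also matched single windows of other tables. In the ventral table of 24 h against 26 h, the window nearest Ncam2, a neural cell adhesion gene, aligned to the first Cntnap5a window over 270 bases at 94.1% identity and had 7.65 RPKM at 24 h and 0.64 at 26 h. A window nearest the vasopressin receptor gene Avpr1a aligned to the second over 294 bases at 92.5% and had 11.47 against 1.48 RPKM. In these relatives the ventral 24 h column was therefore the higher one, and at 7.65 and 11.47 RPKM it stood above the 3.82 and 4.21 RPKM that the same column had in Cntnap5a. In the dorsal table against 22 h, the window nearest Nxnl2 aligned over 318 bases at 95.9% and was lower at 24 h, with 1.75 against 7.34 RPKM. Nrxn3, Cntnap2, Dlg2 and Rims1 had no relative in those tables.

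Among 72 genes of neurexin-based adhesion and synaptic scaffolding, 9 named a listed window, but the 5 genes above are among them because they were listed. Without these 5, the list had 4 of 67 genes with a window (5.97%), Lrrtm1, Apba2, Magi2 and Dlgap2, beside 608 of 22238 protein-coding genes (2.73%). The list was made with results known and gene length was not taken into account, so nothing is read from these shares. With the 5 chosen genes put back, 3 of 10 neurexin and Caspr genes named a window, and all 3 are chosen genes. So did 1 of 16 postsynaptic ligands and partners (Lrrtm1) and 2 of 25 active zone genes (Apba2 and the chosen Rims1). Of 21 postsynaptic scaffold genes 3 did (Dlgap2, Magi2 and the chosen Dlg2). The choice of the 5 genes fixed these counts in part. In the ventral table against 22 h, 9 windows of 7 of these genes were listed, 5 of them the windows described above. All 9 were at least 2-fold lower at 24 h, as were 75.0% of the table, and their median of 5.52-fold was close to the 5.40-fold of all 615 lower windows.

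Lrrtm1, a postsynaptic ligand of neurexins, named a window 395.0 kb upstream, where 4.21 RPKM at 24 h stood against 17.13 RPKM in the 22 h column (4.07-fold lower, 2.14 to 8.53). Apba2, an adaptor of the presynaptic side, had 2 adjoining windows with 3.06 against 16.89 and 2.29 against 19.83 RPKM (5.52- and 8.64-fold lower). Magi2, a scaffold of the postsynaptic side, had 0.76 against 8.32 RPKM, which is 2 against 34 reads (10.9-fold lower, 2.79 to 93.5). In the dorsal SCN, Dlgap2, a partner of the Dlg scaffolds, had 10.91 RPKM in the 24 h column against 20.27 RPKM in the 22 h column (1.86-fold lower, 1.14 to 3.10). It was the 1 pathway window under 2-fold.

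Other genes had windows with nearly the same pair of values, as measured by the distance over log2(RPKM + 0.5) in the 2 columns of a table. Windows nearest Mgmt and Mmp1b had the RPKM of Nrxn3 in both columns (distance 0). The same held for Hs3st5 and Cntnap2, for Mctp2 and Gm12298 and the first Cntnap5a window, and for 4930447N08Rik and Pebp1 and the Rims1 window against 22 h. Nearest to the second Cntnap5a window were Olfr1505 and Pou3f4 (0.018 each), to Dlg2 Sp110 and Eid2 (0.017 each), and to Rims1 against 26 h Cenpw (0.079) and Mab21l1 (0.156); Pcdh20 was the second nearest to Cntnap2 (0.023). With whole reads in only 2 columns, identical pairs can arise. The values of Rims1 against 22 h, with 0 reads at 24 h, were shared by 9 other windows of that table. Those of the first Cntnap5a window were shared by 4 others, of Nrxn3 by 3 and of Cntnap2 by 1. For the second Cntnap5a window, Dlg2 and Rims1 against 26 h the number was 0.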

How the data were processed

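MeDIP-seq reads were aligned with BWA to mm9, per the submitters' processing notes, which give no BWA version. The authors deposited RPKM per 500-bp window and a column named counts that is not proportional to RPKM, here treated as a score and not used; 16 columns of means that repeat these values were not used either. The log2 fold change and the p-value, per the file headers, come from edgeR. The authors' rules for listing windows and for combining duplicate samples are not given in the sources used here. The ventral 24 h against 26 h table lists 3 windows on more than 1 row, and these were counted once.

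Reads were recovered as whole multiples of the RPKM of 1 read, within 0.01 RPKM, which was tested on simulated data. Ratios carry exact (Clopper-Pearson) 95% intervals, and a column at 0 was set to a floor of 3 reads. CpGs, 31-base words, tandem distance (shifts of 20 to 300 bases) and reading frames were computed from the mm9 sequence, and alignments with BLAST 2.17.0. Gene models were GENCODE M1. The other tools were pysam 0.24.0, Biopython 1.88, numba 0.67.0, scipy 1.17.1, pandas 2.3.3 and numpy 2.4.6 under Python 3.11.15.

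Named in the text were all windows of the 5 genes, every pathway gene that named a listed window, and up to 2 windows of nearest values per member. Members and lists were chosen with earlier results of these data known. No group comparison was tested, because each group has 1 column. Cntnap5a sequence is not printed.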

Additional observations from a re-analysis of the deposited data

How the results depend on the processing

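The counts of windows of the 5 genes that were at least 2-fold lower stayed within 1.5 times, and their folds kept their direction, under the alternatives tried: reads without scaling to depth, the authors' log2 fold change, neighbouring windows merged, a limit of 3-fold, genes taken by overlap with the gene body, 1 read added to both columns, and the sum over the windows of a gene. The direction could hardly change under these alternatives, because the same contrast selected the windows and the 24 h columns are the shallowest. That it held is therefore no independent check. With the Cntnap5a windows merged, the ventral count against 22 h was 4 in place of 5. Without scaling to depth the ventral folds were larger, up to 13.7 at Nrxn3. Adding 1 read gave 6.72 at Nrxn3. The Rims1 folds against 0 reads depend on how the zero is treated: adding 1 read gave 12.0 against 22 h and 13.5 against 26 h, and the authors' deposited table, taken out of log2, corresponds to 121.6 and 130.9, where the floor gave bounds of 3.74 and 4.24. The distance to a start site depends on the transcripts considered. The nearest annotated start put the Nrxn3 window at -240137 bp, upstream of a start, in place of 269328 bp, and the Rims1 window at 40172 bp in place of 249312 bp. No paired analysis was possible because each table gives 1 column per cycle length and no replicate numbers, and for the same reason no replicate could be left out. Depth limits the folds most at Nrxn3, with 3 reads, and at Rims1, with 0.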
